A study of Mus musculus with 18 samples.

Results

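The genes described here encode the heavy and light chains of myosin, and their RNA was measured in cells sorted from the mouse trachea. They were chosen by symbol alone, as every entry of the deposited count table whose symbol begins with Myo, Myh or Myl followed by a number. The rule found 50 of the 26327 gene symbols in the table, of which 25 are Myo genes, 14 are Myh genes and 11 are Myl genes. RNA sequencing was done on 18 libraries from 3 sorted populations, with 7 brush cell libraries, 7 from EpCAM+ cells and 4 from CD45+ cells. Brush cells, which share many features with the tuft cells of the gut, are a scarce chemosensory cell type of the airway epithelium that bears an apical tuft of microvilli.

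All 3 groups came from naïve mice of 1 congenic B6 line with the transgene Tg(RP23-268L19-EGFP)2Mik, a bacterial artificial chromosome that expresses eGFP from the Chat locus, so the EpCAM+ and CD45+ cells carried the transgene too. Brush cells were the CD45-EpCAM+eGFP+ fraction of a digest made with dispase and then papain. EpCAM+ cells were the CD45-EpCAM+ fraction, a gate that as worded does not leave out eGFP+ cells. CD45+ cells are hematopoietic, and no further sort of their types is given. The labels give neither age nor sex and leave unsaid whether the libraries of 1 group are from different animals. The p-values below therefore measure spread among these libraries, part of which may be technical.

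The libraries held 838328 to 6031711 counts in brush cells, 2442601 to 6087184 in EpCAM+ cells and 371652 to 7438791 in CD45+ cells. Brush replicate 4, EpCAM+ replicate 5 and CD45+ replicate 1 stood apart from their groups, and values without them are given where a call changed. Each group held the highest sums for markers of its own cell types, in counts scaled to the library size (CPM). Summed over 10 brush cell markers, brush libraries held 10500 to 13200 CPM and EpCAM+ libraries 8.94 to 39.7 CPM, and in the latter Il25 and Gfi1b were at 0. In CD45+ libraries they summed to 364 to 745 CPM, most of it from Alox5ap, a gene leukocytes also use. The 10 leukocyte markers summed to 7780 to 10900 CPM in CD45+ libraries, 81.1 to 232 CPM in brush libraries and 10.9 to 42.1 CPM in EpCAM+ libraries. In brush and EpCAM+ libraries most of this was Lcp1. Basal cell markers (7 genes) summed to 4130 to 7210 CPM in EpCAM+ libraries and 62.4 to 249 CPM in brush libraries, and club and goblet cell markers (7 genes) to 11700 to 58000 CPM and 161 to 566 CPM. In CD45+ libraries these lists summed to 5.75 to 73.8 and 97.8 to 325 CPM, both overlapping the brush ranges. Ciliated cell markers (8 genes) summed to 1040 to 1710 CPM in EpCAM+, 118 to 294 in brush and 170 to 609 in CD45+ libraries. In CD45+ libraries most of that was Tppp3 (mean 353.1 CPM). The part of epithelial RNA in CD45+ values was not tested. The EpCAM+ libraries therefore held mixed epithelium with few counts from brush cell genes. In such bulk samples, fewer cells of a type and less RNA per cell cannot be told apart.

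Myosins are motors that turn ATP into movement along actin filaments. A heavy chain carries the motor domain, and light chains or calmodulin bind its neck. Myosins of class II pair 2 heavy chains and assemble into filaments that contract, in muscle and at the cell cortex. Phosphorylation of the regulatory light chain switches on the non-muscle forms at the cortex. The other classes do not build such filaments: class I motors tie membranes to actin, class V motors carry vesicles outward, and myosin VI moves the opposite way along the filament. In epithelia these motors are known for work at the apical surface, where actin bundles form the core of each microvillus.

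Myosin transcripts took small shares of the libraries. Leaving out ribosomal RNA genes, they made up 0.202 to 0.24% of counts in the brush libraries (median 0.217%). The shares were 0.141 to 0.227% in the EpCAM+ (median 0.169%) and 0.185 to 0.24% in the CD45+ libraries (median 0.2045%). Brush and EpCAM+ ranges overlapped only through EpCAM+ replicate 5 (0.227%), a library that stood apart. The other EpCAM+ libraries held 0.141 to 0.178%, below every brush library. No test was made of these shares, and their order is that of the count table. RSEM estimates, also deposited, held 2.32 times as many counts for Myl6, 3.721 for Myl12a and 1.647 for Myl12b. In TPM, a unit that corrects for transcript length, Myl6 averaged 666.5, 940.5 and 1062 in brush, EpCAM+ and CD45+ cells. Myl12a averaged 165.3, 555.3 and 414.4 TPM, lowest in brush cells as well. Myl12b averaged 206.2, 181.2 and 234.3 TPM. Each library had counts for 21 to 44 of the 50 genes. Of these, 26 passed the filter on low counts and entered the test, and the other 24 had 0 to 72 counts over all 18 libraries and were not tested. The test was edgeR's quasi-likelihood F test on all 13418 genes that passed, with Benjamini-Hochberg adjustment over all of them and a threshold of 0.05. All adjusted p-values of single genes below come from it, and log2 fold changes are given with their standard error.

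The populations differed in which myosin chains they expressed. Against EpCAM+ cells, 7 myosin genes were higher in brush cells (among them Myo15b, Myh3, Myo5b, Myo6 and Myo9b), 7 were lower (Myl12a, Myl4, Myo1c, Myo5a, Myh14, Myo10 and Myh9) and 12 did not pass the threshold. Those 14 are 53.8% of the tested myosin genes, where 40.3% of all tested genes were called, 18.3% as higher and 22.0% as lower. The median log2 fold change of the 26 genes was 0.39, or 0.26 with genes of 3 or fewer counts in a group set at the limit of their counting interval, and that of all tested genes was -0.06. Against CD45+ cells, 11 were higher in brush cells, 9 were lower and 6 did not pass. That is 76.9%, against 45.8% of all tested genes (23.4% higher and 22.4% lower), with medians of 0.08 for the myosin genes and 0.05 for all genes. For reference, EpCAM+ cells had 8 myosin genes higher and 5 lower than CD45+ cells, 50.0% of those tested against 40.5% of all genes. The 3 comparisons share libraries, so their counts are not independent of each other.

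Read over all 3 populations, 6 myosin genes were higher in brush cells than in both other groups, among them Myo15b, Myh3, Myo6 and Myo5b. They are 23.1% of the tested myosin genes, and the same pattern held for 11.3% of all tested genes. Another 5 (Myl12a, Myl4, Myo1c, Myo5a and Myh9) were lower in brush cells than in both other groups, 19.2% against 9.82%. CD45+ cells were highest for 5 (Myo1f, Myo1g, Myo5a, Myo7a and Myo9b) and EpCAM+ cells for 2 (Myh14 and Myo10), 19.2% and 7.69% against 13.0% and 10.1% of all tested genes. CD45+ cells were lowest for 8 (among them Myh14, Myo10, Myo1d, Myo5b, Myo5c and Myo6), 30.8% against 13.5%, and EpCAM+ cells for Myo9b alone, 3.85% against 5.24%. In 8 of the 26 tested genes the values of brush and EpCAM+ libraries did not overlap (30.8%, where 20.3% of all tested genes did not). For Myl4, 1 of these, the nearest values were 0.544 and 0.557 CPM. Between brush and CD45+ libraries 18 did not overlap (69.2% against 30.5%), and between EpCAM+ and CD45+ libraries 12 did not (46.2% against 27.2%). Some members passed the filter only through the group where they were high: Myh3 and Myo15b through brush, Myo1f and Myo1g through CD45+ libraries. Myl4 passed only through EpCAM+ and CD45+ libraries, as no brush library held more than 0.544 CPM of it. For these genes, being tested already depended on a high level in the groups named. Their part in the shares above, and their adjusted p-values below, are to be read with that limit.

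**Figure D1:**
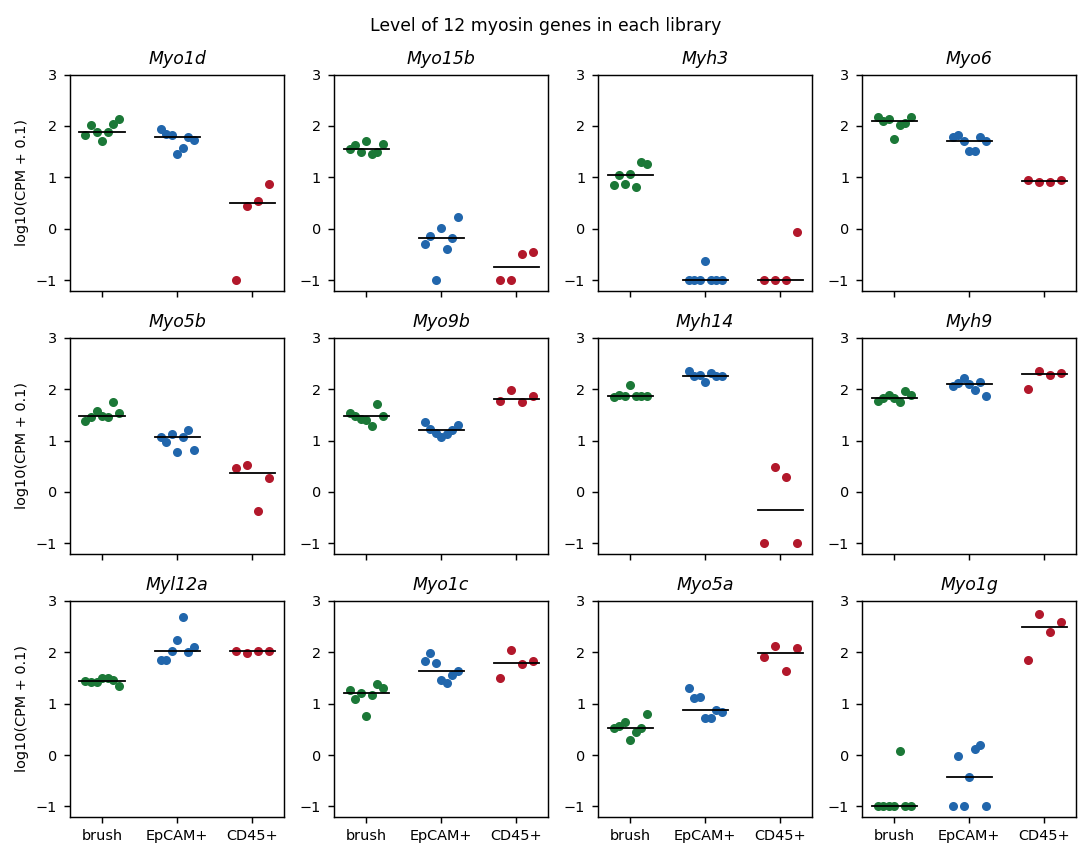
Level of 12 myosin genes in each of the 18 libraries, as log10 of CPM plus 0.1, with 1 point per library, a bar at the median of each group and 1 panel per gene. Brush libraries lie above all others for Myo15b (28.9 to 50.9 CPM), Myh3 and Myo5b and below all others for Myl12a (22.0 to 32.05 CPM).

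**Figure D2:**
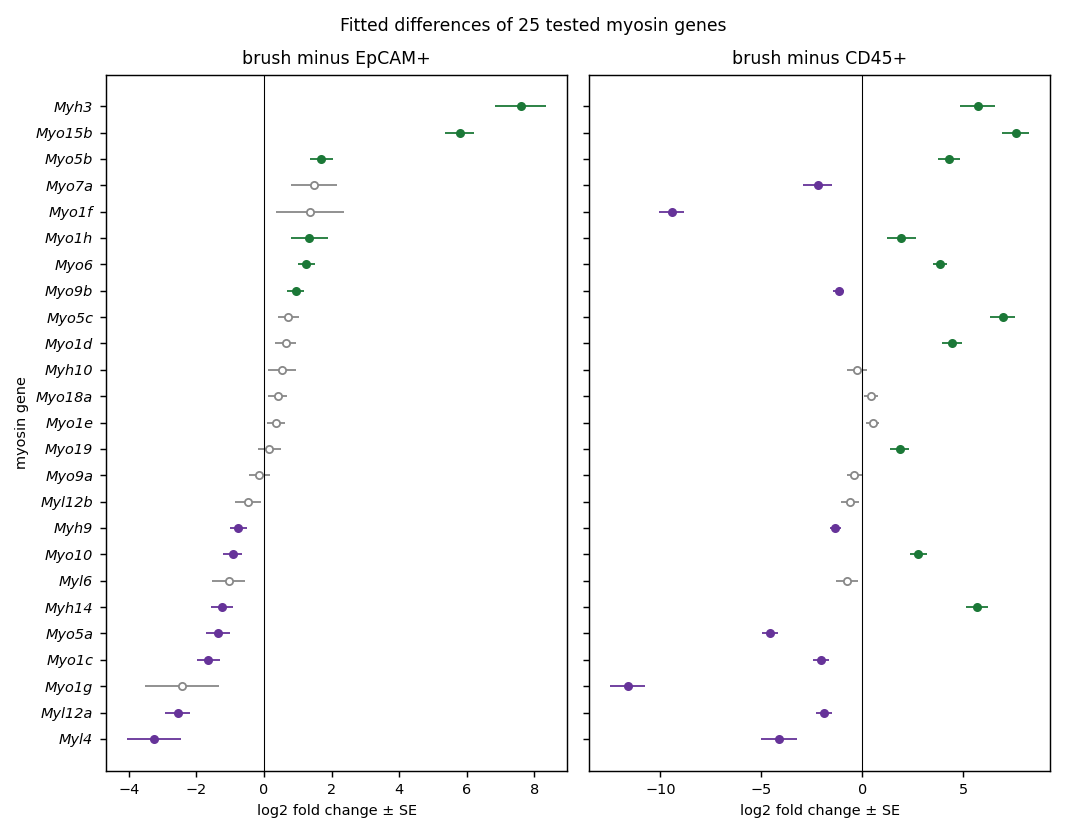
Log2 fold change with its standard error for 25 tested myosin genes, brush minus EpCAM+ and brush minus CD45+, where filled green points passed the threshold as higher, filled purple points as lower, and open grey points did not pass. The fitted values of genes with 3 or fewer counts in a group (Myh3, Myo1f, Myo1g and, against CD45+ cells, Myo15b) depend on the small count that the fit adds. Against EpCAM+ cells the values run from -3.25 for Myl4 to the fitted values of Myo15b (5.79) and Myh3.

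Among the class I motors, Myo1c was lowest in brush cells, Myo1d was a gene of both epithelial groups, and Myo1f and Myo1g were nearly limited to CD45+ cells. Myo1c (GRCm38 chr11:75650504-75673910, plus strand, by GENCODE vM21, as for the genes below) is a widely expressed class I motor of membrane traffic. It held 5.66 to 24.1 CPM in brush libraries (median 15.7, mean 15.8 ± 5.94, SD, n = 7) and 24.7 to 96.3 CPM in EpCAM+ libraries (median 42.3, mean 51.1 ± 25.8, SD, n = 7). The 4 CD45+ libraries held 31.6, 108.4, 59.9 and 65.8 CPM. Every brush library was below every other library. The log2 fold change was -1.64 ± 0.34 against EpCAM+ cells (edgeR adjusted p = 0.000408) and -2.05 ± 0.38 against CD45+ cells (edgeR adjusted p = 9.57e-05). Myo1d, another short-tailed class I motor, was an epithelial gene at 50.9 to 133.7 CPM in brush libraries and 28.7 to 85.8 CPM in EpCAM+ libraries, against 0, 2.74, 3.40 and 7.37 CPM in CD45+ libraries. It was higher in brush than in CD45+ cells by 4.44 ± 0.48 (edgeR adjusted p = 5.63e-08). Its difference of 0.65 ± 0.31 from EpCAM+ cells did not pass (edgeR adjusted p = 0.0998, or 0.0418 without the 3 libraries that stood apart). Myo1e, a long-tailed class I motor known from endocytosis, averaged 67.4, 52.7 and 46.9 CPM in brush, EpCAM+ and CD45+ cells and passed in no comparison.

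Myo1f (chr17:33555707-33607764, plus strand) and Myo1g (chr11:6506548-6520965, minus strand) are the class I motors known from leukocytes. Myo1f held 48.8, 284.7, 120 and 211 CPM in the 4 CD45+ libraries, 3087 counts in all, and 6 counts over the 7 brush libraries and 2 over the 7 EpCAM+ libraries. Myo1g held 71.8, 549.9, 249 and 393 CPM in CD45+ libraries, 6047 counts in all, with 2 counts over the brush and 15 over the EpCAM+ libraries. Both genes were lowest in CD45+ replicate 1, the shallowest library, and even there far above all brush and EpCAM+ libraries. The log2 fold change of Myo1f between brush and CD45+ cells was -9.44 ± 0.61 (edgeR adjusted p = 3.75e-11). For Myo1g, pooled counts per library size were 5140 times higher in CD45+ than in brush cells (95% exact binomial interval 1420 to 42400, counting error only; edgeR adjusted p = 2.68e-10). The brush libraries held 81.1 to 232 CPM of leukocyte markers beside these few counts, and EpCAM+ libraries 10.9 to 42.1 CPM. Most of these sums came from Lcp1, which is also in the list of microvillus genes below. Lcp1 averaged 106.4 CPM in brush and 24 CPM in EpCAM+ libraries. Ptprc averaged 21 CPM in brush libraries, and Cd53 and Tyrobp 0.5956 and 0.8196 CPM.

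The promoters of both leukocyte motors are shown because the genes were counted in the same 4 libraries and almost nowhere else. The letters are RefSeq's on GRCm38.p6, from the gene start upstream, 5′ to 3′ in the direction of the gene: chr17:33555457-33555706 on the plus strand for Myo1f and chr11:6520959-6521208 on the minus strand for Myo1g. Capitals would mark a TATA box (TATAAA), an octamer (ATGCAAAT) or a PU.1 site (GAGGAAGT), each searched on both strands, and neither window holds any of them.
Myo1f: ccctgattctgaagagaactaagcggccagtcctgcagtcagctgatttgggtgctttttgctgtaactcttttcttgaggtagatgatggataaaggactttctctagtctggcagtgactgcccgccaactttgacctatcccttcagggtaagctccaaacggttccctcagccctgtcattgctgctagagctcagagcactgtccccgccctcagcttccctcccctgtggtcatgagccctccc
Myo1g: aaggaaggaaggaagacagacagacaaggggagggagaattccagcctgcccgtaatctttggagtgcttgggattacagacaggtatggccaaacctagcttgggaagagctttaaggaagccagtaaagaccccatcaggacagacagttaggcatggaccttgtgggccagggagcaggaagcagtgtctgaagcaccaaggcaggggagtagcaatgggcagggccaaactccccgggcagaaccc
Of 32851 windows of the same length at RefSeq gene starts, 1.6% hold the octamer, 2.44% the PU.1 letters and 12.4% the TATA box. An E-box (CANNTG, left in lower case) lies 211 bases upstream of the Myo1f start, and 66.2% of all windows hold one. RefSeq windows were found for 44 of the 50 myosin genes (55 windows), and none of those 55 holds the octamer or the PU.1 letters, 10 hold the TATA box and 32 an E-box. These are matches of letters and say nothing of binding.

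Myo1h, a class I motor with few described roles, was low in every group, at 4.17 to 10.8 CPM in brush libraries, 0.425 to 4.81 CPM in EpCAM+ libraries and 0, 0.249, 1.21 and 4.06 CPM in CD45+ libraries. It was higher in brush cells than in EpCAM+ cells by 1.35 ± 0.54 (edgeR adjusted p = 0.048) and than in CD45+ cells by 1.93 ± 0.71 (edgeR adjusted p = 0.0282). The call against EpCAM+ cells was lost in 15 of 28 alternative settings, among them the fit without the 3 libraries that stood apart (adjusted p = 0.0827), and with RSEM estimated counts the adjusted p was 0.535 against EpCAM+ and 0.155 against CD45+ cells. Without CD45+ replicate 4 the second fold change was 3.07, and it did not pass without brush replicate 7, CD45+ replicate 2 or CD45+ replicate 3 (adjusted p = 0.0535, 0.104 and 0.0839). Of its 50-base windows, 23.27% also lie in another gene, chiefly the overlapping Kctd10, which held 43.9, 64.6 and 50.3 CPM in brush, EpCAM+ and CD45+ cells. Myo1a, the brush border myosin of the intestine, had only 42 counts over the brush libraries, 7 over the EpCAM+ libraries and 0 over the CD45+ libraries, and was not tested.

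Among the cargo motors, brush cells were rich in Myo6 and Myo5b and poor in Myo5a. Myo6 (chr9:80165031-80311729, plus strand) encodes the motor that moves toward the pointed ends of actin filaments, and it is known from endocytosis at the base of microvilli and from hair cells. Brush libraries held 54.7 to 152.5 CPM (median 124.2), EpCAM+ libraries 32.5 to 67.2 CPM (median 50.5), and CD45+ libraries 8.62, 7.98, 8.10 and 8.89 CPM. Brush and EpCAM+ values overlapped at their ends, and all CD45+ values lay below both. Brush cells averaged 119.5 ± 33.5 CPM, higher than EpCAM+ cells by a log2 fold change of 1.25 ± 0.25 (edgeR adjusted p = 0.00028) and than CD45+ cells by 3.84 ± 0.37 (edgeR adjusted p = 8.64e-09).

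Of the 3 class V motors, Myo5b is known for carrying recycling endosomes to the apical membrane, Myo5c for secretory granules of exocrine cells, and Myo5a for melanosomes and for traffic in neurons and leukocytes. Myo5b (chr18:74440936-74771493, plus strand) held 23.4 to 55.7 CPM in brush libraries (median 30.2), 5.79 to 15.9 CPM in EpCAM+ libraries (median 11.6), and 2.87, 3.24, 0.329 and 1.78 CPM in CD45+ libraries. All brush values lay above all others. The log2 fold changes were 1.69 ± 0.34 against EpCAM+ cells (edgeR adjusted p = 0.000307) and 4.30 ± 0.54 against CD45+ cells (edgeR adjusted p = 5.47e-07), or 5.01 without CD45+ replicate 2. Myo5c (chr9:75232020-75305451, plus strand) held 34.4 to 73.1 CPM in brush and 18.6 to 42.1 CPM in EpCAM+ libraries, and only 6 counts over the CD45+ libraries. Both epithelial groups exceeded CD45+ cells, brush cells by 6.93 ± 0.61 (edgeR adjusted p = 2.95e-09), or 6.14 and 8.06 without CD45+ replicate 3 and 4. Its difference between brush and EpCAM+ cells, 0.73 ± 0.31, missed the threshold (edgeR adjusted p = 0.0654), and passed it with DESeq2 (adjusted p = 0.03), when only those groups were fitted (0.0199), and without CD45+ replicate 3 (0.0276) or 4 (0.0471).

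Myo5a (chr9:75071015-75223688, plus strand) showed the reverse order. Brush libraries held 1.89 to 6.19 CPM (median 3.26), EpCAM+ libraries 5.25 to 20.1 CPM (median 7.50), and CD45+ libraries 80.5, 129.1, 43.7 and 119 CPM. The CD45+ values stood clear of the rest, while brush and EpCAM+ values overlapped. Brush cells were lower than EpCAM+ cells by a log2 fold change of -1.37 ± 0.36 (edgeR adjusted p = 0.00342) and than CD45+ cells by -4.59 ± 0.40 (edgeR adjusted p = 2.78e-09). Myo5c, which lies next to Myo5a on the same strand, had only 6 counts in those CD45+ libraries.

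Shares within a subfamily do not depend on how libraries are scaled, and were taken from the RSEM table of TPM, a unit that corrects for transcript length. Of the summed TPM of the 3 class V genes, Myo5b took 53.82 ± 10.56% in brush, 36.06 ± 13.53% in EpCAM+ and 3.7% in CD45+ cells. Myo5c took 37.56%, 36.47% and 0.2%, and Myo5a 8.62 ± 6.96%, 27.47 ± 7.40% and 96.1 ± 2.52%. Brush cells thus differed from EpCAM+ cells in the Myo5a share, by -18.85 percentage points (two-sided exact permutation p = 0.00233, adjusted p = 0.0105 over 33 share comparisons), and in the Myo5b share, by 17.76 points (exact p = 0.021, adjusted p = 0.0346). The Myo5b call was lost on leaving out any 1 of brush replicates 2, 5, 6 and 7 or EpCAM+ replicates 1 to 4 (adjusted p = 0.0538 to 0.0692). The Myo5c share differed by 1.09 points (exact p = 0.767).

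**Figure D3:**
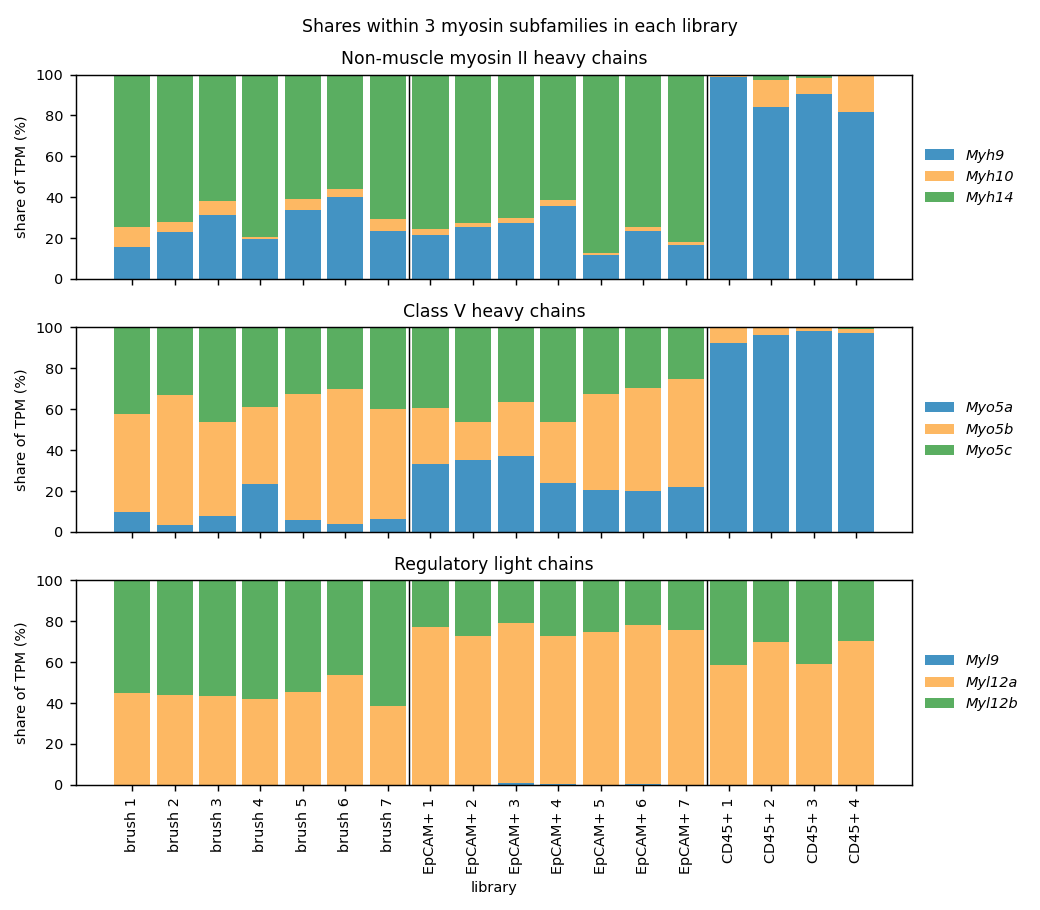
Shares of RSEM TPM within 3 myosin subfamilies, stacked to 100% in each library: the non-muscle heavy chains Myh9, Myh10 and Myh14, the class V heavy chains Myo5a, Myo5b and Myo5c, and the light chains Myl9, Myl12a and Myl12b. Myh9 and Myo5a fill most of the CD45+ bars (means of 88.73% and 96.1%), and the Myl12b part is larger in every brush library (46.23 to 61.42%) than in any other.

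Among the MyTH4-FERM myosins, the class known from stereocilia, filopodia and brush borders, Myo15b set brush cells apart. Myo15b (chr11:115858406-115892603, plus strand) is a class XV heavy chain gene. Brush libraries held 28.9 to 50.9 CPM (median 35.2), 1119 counts in all. EpCAM+ libraries held 0 to 1.62 CPM (median 0.577), 20 counts in all, and the 4 CD45+ libraries 0, 0, 0.219 and 0.254 CPM, 3 counts in all. No brush value came near any other. The log2 fold change against EpCAM+ cells was 5.79 ± 0.43 (edgeR adjusted p = 4.47e-10). Against CD45+ cells the pooled counts per library size were 220 times higher (95% exact binomial interval 75 to 1070; edgeR adjusted p = 4.41e-09). Exons of Recql5 lie on the opposite strand, and whether the counting used strand is not given in the sources used here. Recql5 held 29.1 ± 11.4 CPM in brush, 12.1 ± 5.14 in EpCAM+ and 17.7 ± 13.5 in CD45+ cells, and its part in the Myo15b counts was not tested.

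Other motors of actin protrusions moved differently or were scarce. Myo10, the filopodial motor, held 10.5 to 32.2 CPM in brush libraries, 25.95 to 56.2 CPM in EpCAM+ libraries and 0, 2.99, 3.50 and 2.79 CPM in CD45+ libraries. It was lower in brush than in EpCAM+ cells by -0.93 ± 0.28 (edgeR adjusted p = 0.0117), with overlapping values, and higher than in CD45+ cells by 2.77 ± 0.41. Myo7a, a motor of hair cell stereocilia, held 0, 35.6, 6.68 and 35.8 CPM in CD45+ libraries, 1.63 to 20.7 CPM in brush libraries, with replicate 4 the highest, and 1.54 ± 0.95 CPM in EpCAM+ cells. It was lower in brush than in CD45+ cells by -2.22 ± 0.71 (edgeR adjusted p = 0.0127), a call lost without CD45+ replicate 2 or 4 (adjusted p = 0.0771 and 0.0777) and larger without the 3 libraries that stood apart (-2.99), and lower in EpCAM+ than in CD45+ cells by -3.70 ± 0.72 (edgeR adjusted p = 0.000177). The stereocilia genes Myo15, Myo3a and Myo3b and the brush border gene Myo7b did not pass the filter. Their counts over brush, EpCAM+ and CD45+ libraries were 2, 24 and 14 for Myo15, 10, 3 and 6 for Myo3a, 12, 8 and 33 for Myo3b, and 18, 2 and 0 for Myo7b.

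Brush cells also held transcripts of Myh3, the heavy chain of embryonic skeletal muscle. Myh3 (chr11:67078300-67102291, plus strand) had 384 counts over the brush libraries, 6.53 to 19.8 CPM (median 10.9). It had 1 count over the 7 EpCAM+ libraries, in replicate 4, and 3 counts over the 4 CD45+ libraries, all in replicate 4. All 7 brush libraries were above every other library. Pooled counts per library size were 395 times higher in brush than in EpCAM+ cells (95% exact binomial interval 70.4 to 15600; edgeR adjusted p = 2.55e-08) and 75.4 times higher than in CD45+ cells (25.6 to 367; edgeR adjusted p = 8.11e-06).

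The Myh3 promoter is shown because the gene was counted in all brush libraries and in only 1 library of each other group. RefSeq's window upstream of its start is chr11:67078050-67078299 on the plus strand of GRCm38.p6, written 5′ to 3′, and capitals mark the TATA box, at -29 from the start.
Myh3: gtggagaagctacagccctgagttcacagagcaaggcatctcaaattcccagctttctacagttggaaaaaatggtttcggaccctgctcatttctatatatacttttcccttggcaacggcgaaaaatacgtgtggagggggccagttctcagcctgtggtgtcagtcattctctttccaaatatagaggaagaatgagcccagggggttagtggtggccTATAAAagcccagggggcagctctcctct
The same TATA letters occur in 12.4% of all windows, and an E-box lies at -191.

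The 20 striated muscle markers, among them actins, troponins and titin, summed to 5.99 to 14.3 CPM in brush libraries, 9.62 to 23.1 CPM in EpCAM+ libraries and 22.4 to 106 CPM in CD45+ libraries. Of these 20 markers, 17 had counts in brush, 17 in EpCAM+ and 16 in CD45+ libraries. Those at 0 were Tnnc1, Actn2 and Myod1 in brush libraries and Pvalb, Myoz1 and Myod1 in EpCAM+ libraries. In CD45+ libraries they were Actc1, Tnni1, Pvalb and Myod1. The ranges of brush and EpCAM+ libraries overlapped. Other muscle genes outside that list were counted in brush cells as well: Myom1, a sarcomere M-band gene, averaged 5.61 CPM in brush, 1.47 in EpCAM+ and 4.95 in CD45+ cells. The part of muscle cells in the Myh3 counts was not tested. Reads shared between sarcomeric heavy chains are a limit for this family: 4.76% of the 50-base windows of Myh3 also occur in another gene, most often Myh13, against 30.5% for Myh1 and 24.58% for Myh2. By RSEM, Myh3 stood at 2.56 ± 1.75 TPM in brush cells and was listed at 0 in the other groups. Unc45b, the muscle myosin chaperone, had 139 counts over the brush libraries, 2 over EpCAM+ and 0 over CD45+ libraries. Its pooled counts per library size were 71.4 times higher in brush than in EpCAM+ cells (95% exact binomial interval 19.4 to 596, counting error only). The edgeR adjusted p of 7.92e-06 carries the limit of the filter given above, as Unc45b passed only through the brush libraries. Unc45b and Myom1 were picked out after their values were seen.

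**Figure D4:**
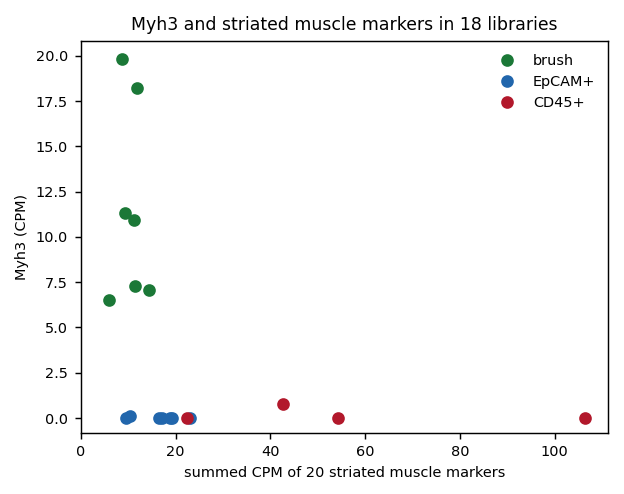
Myh3 level (CPM) against the summed level of 20 striated muscle markers (CPM) in each of the 18 libraries, marked by group. The 7 brush libraries lie at 6.53 to 19.8 CPM of Myh3 and at most 14.3 CPM of muscle markers, and the CD45+ libraries lie near 0 with 22.4 to 106 CPM of muscle markers.

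The other sarcomeric and smooth muscle heavy chains did not pass the filter. Myh7, the slow and cardiac heavy chain, had 44 counts spread over all 7 EpCAM+ libraries (1.08 to 2.13 CPM), with 1 over the brush and 2 over the CD45+ libraries. Myh13, of extraocular and laryngeal muscle, had 35 counts in brush, 2 in EpCAM+ and 10 in CD45+ libraries, and Myh6, the atrial heavy chain, had 20, 2 and 10. For Myh7b the counts were 11, 21 and 7, for Myh2 11, 1 and 0, for Myh15 5, 2 and 0, for Myh4 3, 2 and 5, for Myh8 2, 2 and 0, and for Myh1 0, 3 and 2. Myh11, the smooth muscle heavy chain, had 7, 16 and 1 counts, and the 12 smooth muscle markers summed to 36.3 to 70 CPM in brush libraries (mostly Smtn, with Acta2 at 1.37 CPM), 21.3 to 27.7 in EpCAM+ and 8.62 to 23.6 in CD45+ libraries. In a fit without the filter, Myh7 was lower in brush than in EpCAM+ cells (log2 fold change -4.30, edgeR adjusted p = 0.00369) and Myh13 was higher (3.62, edgeR adjusted p = 0.0232). For both, part of the windows is shared with other heavy chains, 20.04% for Myh7 and 8.26% for Myh13.

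Non-muscle myosin II, the contractile motor of the cell cortex, comes with 3 heavy chains, and the populations differed in which they used. Myh14 (chr7:44605803-44670843, minus strand), heavy chain IIC, was epithelial: EpCAM+ libraries held 137.6 to 226 CPM (median 182), brush libraries 70.2 to 122.5 CPM (median 73.4), and CD45+ libraries 0, 2.99, 1.86 and 0 CPM. The 3 groups did not overlap in CPM. It was lower in brush than in EpCAM+ cells by -1.23 ± 0.33 (edgeR adjusted p = 0.00399) and higher than in CD45+ cells by 5.65 ± 0.55 (edgeR adjusted p = 1.27e-08). On the RSEM scale brush and EpCAM+ values overlapped, at 44.8 to 85.7 and 76.2 to 97.95 TPM (means of 63.3 and 83.0). Myh9 (chr15:77760587-77842175, minus strand), heavy chain IIA, held 56.1 to 91.5 CPM in brush libraries (median 67.9), 73.9 to 166.8 CPM in EpCAM+ libraries (median 122.7), and 100.6, 225, 186 and 208 CPM in CD45+ libraries. Brush and EpCAM+ values overlapped, and all CD45+ values lay above the brush values. Myh9 was lower in brush cells than in EpCAM+ cells by -0.76 ± 0.24 (edgeR adjusted p = 0.0154) and than in CD45+ cells by -1.35 ± 0.28 (edgeR adjusted p = 0.000282). Between EpCAM+ and CD45+ cells it did not pass (edgeR adjusted p = 0.0942), but did so without CD45+ replicate 1 (0.0185) and without the 3 libraries that stood apart (0.0133).

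Myh10, heavy chain IIB, was the scarcest of the 3 and passed in no comparison, with means of 11.6, 7.91 and 12.7 CPM in brush, EpCAM+ and CD45+ cells. Of the summed TPM of the 3 chains, Myh14 took 67.86 ± 8.51% in brush and 74.94 ± 8.30% in EpCAM+ cells but 1.03 ± 1.26% in CD45+ cells, where Myh9 took 88.73 ± 7.72%. The Myh14 share differed between brush and CD45+ cells by 66.83 points (two-sided exact permutation p = 0.00606, the smallest that 7 against 4 libraries can give, adjusted p = 0.0105). Between brush and EpCAM+ cells it differed by -7.07 points (exact p = 0.141, adjusted p = 0.194). Both epithelial groups thus had mainly IIC and the leukocytes mainly IIA by transcript share. Of the 3 shares, that of Myh10 was the one to pass between brush and EpCAM+ cells, at 5.45% against 1.98% (3.47 points, exact p = 0.00524, adjusted p = 0.0105). Between EpCAM+ and CD45+ cells the Myh10 share did not pass (-8.26 points, exact permutation adjusted p = 0.0571), but did so without the 3 libraries that stood apart (-11.14, adjusted p = 0.0408) or without CD45+ replicate 1 alone (-11.3, adjusted p = 0.0283).

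The light chains showed a shift within 1 pair of nearly identical genes. Myl12a (chr17:70993656-71002878) and Myl12b (chr17:70973133-70990890) are neighbours on the minus strand, with an overlap described below, and both encode the regulatory light chain of non-muscle myosin II, the subunit that myosin light chain kinase and the ROCK kinases phosphorylate. Their coding sequences, and that of Myl9, the regulatory light chain of smooth muscle, are each 519 bases long. Those of Myl12a and Myl12b differ at 18 bases (96.5% identity, with the longest identical run of 105 bases), and Myl9 differs from them at 75 and 71 bases. The first stretch of each coding sequence, read from GRCm38 with GENCODE vM21 exons, 5′ to 3′ from the start codon, shows how few bases tell reads of the pair apart. Capitals mark bases that differ from Myl12b. The coding parts lie at chr17:70994612-70996880 (minus strand) for Myl12a, chr17:70974324-70977231 (minus strand) for Myl12b and chr2:156778545-156781162 (plus strand) for Myl9.
Myl12a: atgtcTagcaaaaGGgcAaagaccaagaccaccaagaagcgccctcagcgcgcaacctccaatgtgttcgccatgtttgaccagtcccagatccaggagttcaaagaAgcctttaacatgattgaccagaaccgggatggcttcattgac
Myl12b: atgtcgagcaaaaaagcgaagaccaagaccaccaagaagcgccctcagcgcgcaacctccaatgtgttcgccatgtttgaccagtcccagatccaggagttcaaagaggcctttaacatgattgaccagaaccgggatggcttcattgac
Myl9: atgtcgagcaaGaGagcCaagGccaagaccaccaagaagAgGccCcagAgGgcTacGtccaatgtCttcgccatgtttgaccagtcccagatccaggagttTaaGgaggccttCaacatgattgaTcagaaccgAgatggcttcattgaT
In this stretch Myl12a has 5 capitals and Myl9 has 18.

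Myl12a was low in every brush library. It held 22.0 to 32.05 CPM in brush libraries (median 27.4), 68.85 to 487 CPM in EpCAM+ libraries (median 105, with replicate 5 the highest), and 106, 94.5, 105 and 105 CPM in CD45+ libraries. No brush value reached any other. The log2 fold change was -2.55 ± 0.38 against EpCAM+ cells (edgeR adjusted p = 7.28e-06) and -1.89 ± 0.41 against CD45+ cells (edgeR adjusted p = 0.000514). Without EpCAM+ replicate 5 the first was -1.96 (edgeR adjusted p = 2.92e-07). Myl12b held 77.0 to 181 CPM in brush libraries (median 94.7), 72.8 to 443 CPM in EpCAM+ libraries (median 78.4), and 244, 113, 163 and 128 CPM in CD45+ libraries. Its values overlapped throughout and it passed in neither brush comparison (-0.48 ± 0.38 against EpCAM+ cells, edgeR adjusted p = 0.345; adjusted p = 0.293 against CD45+ cells). Without EpCAM+ replicate 5 the sign against EpCAM+ cells turned (0.10, edgeR adjusted p = 0.815). Within the pair and Myl9, the TPM share of Myl12b was 55.38 ± 4.63% in brush (46.23 to 61.42%), 24.12 ± 2.53% in EpCAM+ (20.72 to 27.16%) and 35.47 ± 6.56% in CD45+ cells (29.41 to 41.29%). Brush cells exceeded EpCAM+ cells by 31.27 points (two-sided exact permutation p = 0.000583, the smallest that 7 against 7 libraries can give, adjusted p = 0.00962) and CD45+ cells by 19.92 points (exact p = 0.00606, adjusted p = 0.0105). Every brush library had a larger Myl12b share than every other library.

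Both light chain genes depend on how reads common to them were assigned. Of their 50-base windows, 21.11% for Myl12a and 19.12% for Myl12b also occur in another gene, mostly in each other. The RSEM estimate over the count table, as a ratio of counts, was 3.721 for Myl12a and 1.647 for Myl12b, and 2.32 for Myl6, where the other 23 tested myosin genes lay between 0.642 and 1.351. GENCODE vM21 also lists a second Myl12b entry on the same strand that spans Myl12a and overlaps its exons, and exons of Myom1 overlap Myl12a on the opposite strand. The part of read assignment in the shift between the pair was not tested. Taken from the count table per kb of exon in place of RSEM, the Myl12b share differed by 31.17 points between brush and EpCAM+ cells (exact permutation adjusted p = 0.00481). The size of the shares, unlike their difference, depended on the source. For Myl12a and Myl12b the count table held 772 and 2762 counts in brush and 4732 and 4372 in EpCAM+ libraries. Their exons span 3360 and 3232 bases. RSEM gave means of 165.3 and 206.2 TPM in brush and 555.3 and 181.2 TPM in EpCAM+ cells. Myl9 itself had 5 counts over the brush, 64 over the EpCAM+ and 3 over the CD45+ libraries.

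Among the essential light chains, Myl6, the common non-muscle form, had the highest TPM of all 50 genes in every group, with means of 666.5, 940.5 and 1062 TPM in brush, EpCAM+ and CD45+ cells. Its counts varied within groups (109.8 ± 53.7, 223 ± 259 and 189.5 ± 171 CPM), with the highest values in the 3 libraries that stood apart. Brush and EpCAM+ cells differed by -1.04 ± 0.49 (edgeR adjusted p = 0.0946). That difference passed without brush replicate 4 (-1.35, adjusted p = 0.0392) and, at a smaller size, without the 3 libraries that stood apart (-0.46, adjusted p = 0.038). Myl4 (chr11:104550663-104595753, plus strand), the atrial and embryonic essential light chain, had 6 counts over the brush, 58 over the EpCAM+ and 59 over the CD45+ libraries. It was lower in brush than in EpCAM+ cells by -3.25 ± 0.80 (edgeR adjusted p = 0.00208; -3.91 without brush replicate 1) and than in CD45+ cells by -4.15 ± 0.89 (edgeR adjusted p = 0.000461). Both p-values carry the limit of the filter given above. Brush and EpCAM+ values did not overlap only through scaling. Brush replicate 1 stood at 0.544 CPM and EpCAM+ replicate 3 at 0.557 CPM, each from 3 counts. The remaining light chains were scarce and not tested. Over brush, EpCAM+ and CD45+ libraries, Myl6b had 28, 24 and 8 counts, Myl7 13, 6 and 6, Myl1 2, 9 and 1, Myl2 0, 1 and 3, Myl10 1 in each, and Myl3 none.

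The remaining classes differed less between the epithelial groups. Myo9b (chr8:71272714-71360713, plus strand), a motor with a domain that turns off small GTPases, held 19.1 to 52.1 CPM in brush libraries (median 30.0), 11.5 to 22.9 CPM in EpCAM+ libraries (median 16.2), and 57.5, 94.0, 56.5 and 72.6 CPM in CD45+ libraries. Brush values overlapped EpCAM+ values and lay below all CD45+ values. It was higher in brush than in EpCAM+ cells by 0.94 ± 0.25 (edgeR adjusted p = 0.00427) and lower than in CD45+ cells by -1.18 ± 0.28 (edgeR adjusted p = 0.00143). Exons of Haus8 overlap it on the opposite strand, and Haus8 held 33.3, 10.7 and 37.9 CPM in brush, EpCAM+ and CD45+ cells; its part in the Myo9b values was not tested. Its relative Myo9a averaged 17.4, 19.7 and 23.4 CPM and Myo18a, a motor tied to the Golgi, 50.1, 37.7 and 35.8 CPM, and neither passed in any comparison. Myo19, the mitochondrial myosin, averaged 9.23, 8.39 and 2.14 CPM and exceeded CD45+ cells in brush cells by 1.84 ± 0.45 (edgeR adjusted p = 0.00168) and in EpCAM+ cells by 1.67 ± 0.45 (edgeR adjusted p = 0.00378). Myo16, a neuronal motor, had 15 counts, all in CD45+ libraries, and Myo18b, of striated muscle, had 2, 2 and 3.

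Ranked by TPM, which allows genes of different length to be compared, the order below the light chains differed between the populations. In each group Myl6 came first and Myl12a and Myl12b took the next places. Among the heavy chains of brush cells Myh14 had 63.3, Myo15b 38.1 and Myo6 33.6 TPM (means of 7 libraries). In EpCAM+ cells Myh14 had 83.0, Myh9 26.8 and Myo10 14.4 TPM, and in CD45+ cells Myo1g had 104, Myh9 40.1, Myo1f 34.4 and Myo5a 16.1 TPM (means of 4 libraries). Myo15b thus stood between Myh14 and Myo6 in brush cells, and had 0.189 TPM in EpCAM+ cells. No test was made between genes, and neighbours in this order were not told apart.

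**Figure D5:**
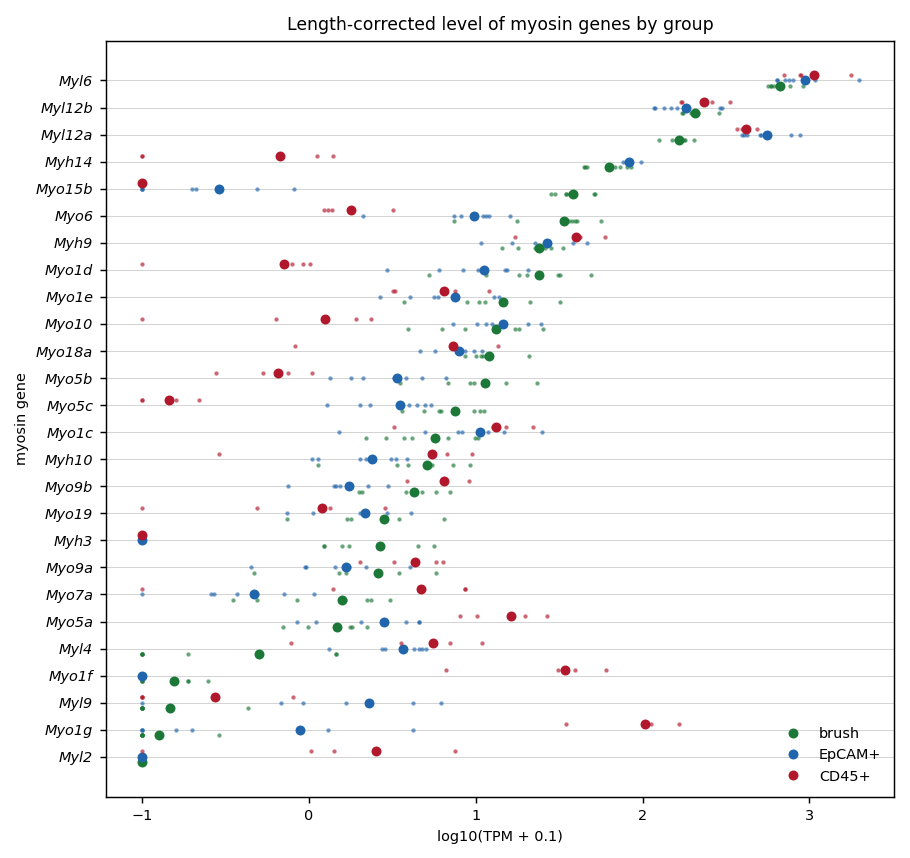
RSEM TPM, as log10 of TPM plus 0.1, of 26 myosin genes with a mean of at least 2 TPM in 1 of the groups, where small dots are libraries and large dots are group means. Myl6, Myl12b and Myl12a lead in all groups, Myo15b reaches 38.1 TPM in brush cells against 0.189 in EpCAM+ cells, and Myo1g reaches 104 TPM in CD45+ cells.

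The enzymes that switch myosin II on and off were measured as a list of 29 kinase, phosphatase and small GTPase pathway genes, of which 24 were tested. Against EpCAM+ cells, 3 were higher in brush cells, 8 were lower and 13 did not pass, with a median log2 fold change of -0.21 against -0.06 over all genes. The called share, 45.8%, was near the 40.3% over all tested genes. Among the higher genes were Arhgef2, a RhoA exchange factor bound to microtubules (3.38 ± 0.33), and Cdc42bpa, the kinase MRCK alpha (2.09 ± 0.28). Ppp1r14c, an inhibitor of the myosin phosphatase, fell by 4.62 ± 0.45 on the log2 scale, and Dapk1, a kinase of the regulatory light chain, by 2.18 ± 0.31. Rhoc (-1.53 ± 0.40) and Cdc42bpg (-1.07 ± 0.33) were lower as well. Mylk, the myosin light chain kinase, averaged 0.755 CPM in brush and 6.37 CPM in EpCAM+ cells (-2.89 ± 0.63), and Ppp1r12a, the targeting subunit of the phosphatase, was lower by -0.72 ± 0.21 (edgeR adjusted p = 0.00939). The ROCK kinases did not pass, at 0.11 ± 0.28 for Rock1 and 0.33 ± 0.32 for Rock2 (edgeR adjusted p = 0.788 and 0.439). Against CD45+ cells, 6 of the 24 were higher, 6 lower and 12 did not pass (50.0% called, against 45.8% of all tested genes). Cdc42bpa was higher there too (4.37 ± 0.41), and Dapk1 (-2.19), Ppp1r12c (-2.07), Rhoa (-1.31) and Ppp1r12a (-0.88, edgeR adjusted p = 0.00527) were lower.

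Of 25 genes for myosin partners and chaperones, 24 were tested, and 7 were higher, 5 lower and 12 not past the threshold between brush and EpCAM+ cells (50.0% called against 40.3% of all tested genes, median -0.03). Calm2, 1 of 3 genes for calmodulin, the light chain of unconventional myosins, averaged 1555 CPM in brush and 327.8 CPM in EpCAM+ cells (2.25 ± 0.34). The 4 myosin VI adaptors in the list did not move together: Optn (2.00 ± 0.23) and Tom1 (1.34 ± 0.34) were higher, Gipc1 was lower (-0.67, edgeR adjusted p = 0.0302), and Dab2 did not pass (-0.40, edgeR adjusted p = 0.789). Gipc1 and Dab2 lie outside the naming rule here and were added after their values were seen. The actin filament proteins Cald1 (-6.31 ± 0.89) and Tpm2 (-4.65 ± 0.68) and the epithelial calmodulin-like gene Calml3 (-2.77 ± 0.40) were lower. Against CD45+ cells 9 were higher and 5 lower (58.3% called against 45.8% of all tested genes), among them Mlph, the melanophilin that links class V motors to vesicles (6.10 ± 0.61), Cgn, a junction protein that binds myosin II (5.40 ± 0.40), and Dab2 (-8.45).

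Microvillus genes were called in both directions. Of 24 genes for the actin core and adhesion of microvilli, 20 were tested, and 6 were higher and 6 lower in brush than in EpCAM+ cells, with 8 not past the threshold (60.0% called against 40.3% of all tested genes, median -0.19). The higher genes included bundling proteins of the core: Espn, or espin (209.9 against 1.44 CPM, 7.18 ± 0.38), Avil (8.85 ± 0.44) and Vil1, or villin (3.97 ± 0.61). The lower genes included Ezr, which ties the membrane to actin (-2.19 ± 0.32), Pls3, a plastin (-2.53 ± 0.56), and Cobl, an actin nucleator (-3.04 ± 0.51). Cdhr2 and Cdhr5, the cadherins that join microvillus tips, had 330 and 256 counts over the brush libraries, 0 and 4 over the EpCAM+ libraries and 2 and 0 over the CD45+ libraries. In the same list, Anks4b had 27, 2 and 0 counts and Ush1c 3, 0 and 0 over brush, EpCAM+ and CD45+ libraries, and neither was tested. All of these were picked out after their values were seen. The brush border motors Myo7b and Myo1a had 18 and 42 counts over the same 7 brush libraries. Against CD45+ cells 8 microvillus genes were higher, 6 lower and 6 not past the threshold (70.0% called against 45.8%). Espn (7.20) and Eps8l2 (6.85) were among the higher and Msn, or moesin (-4.31), and Fscn1, or fascin (-5.27), among the lower.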

How the data were processed

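Reads per gene were measured in 18 libraries of sorted mouse tracheal cells. The authors deposited 1 table of whole-number counts for 26327 symbols, not normalized, and RSEM tables of each library with expected counts and TPM. The build was mm10 per the submitters' processing notes, which list DESeq2, featureCounts, RSEM 1.2.21, STAR 2.4.2a and Picard 1.1073 without their roles. Annotation, strand setting, read length and the handling of reads that match several genes: not given in the sources used here. Every value column belonged to a labelled sample (0 columns of no mapped sample).

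Counts were tested with edgeR 4.0.16 (quasi-likelihood F test, TMM, filterByExpr by group) in R 4.3.3, in 1 fit of all 18 libraries with group as the only term, and 12909 genes were removed by the filter. Adjusted p-values are Benjamini-Hochberg over 13418 genes, with a threshold of 0.05. Standard errors are the absolute log2 fold change over the square root of F. CPM use the TMM library size and are given as mean ± SD. Where a group had 1 to 3 counts, pooled counts per library size are given as a ratio with a 95% exact binomial interval, which covers counting error only. Shares within subfamilies came from the deposited TPM values and were tested by two-sided exact permutation, adjusted over 33 comparisons, of which 20 passed. Another 3, of Myo7b, could not be tested. Scripts were tested on simulated data. Gene positions are from GENCODE vM21 (GRCm38), and promoter letters from RefSeq (GRCm38.p6). Shared windows are stretches of 50 bases of a gene's exons that also occur in the exons of another gene.

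The member genes, the gene lists and the tests were chosen with earlier results of these data known. All members that passed the filter could be named, and 1 of them, which the counts of members include, is not reported here. From each other list, up to 6 genes per comparison were named: those past the threshold with the largest log2 fold change among genes of at least 10 CPM in a group, plus Mylk, Rock1, Rock2 and Ppp1r12a. Alternatives were DESeq2 1.42.0, voom (limma 3.58.1), other scaling, other filters, estimated counts rounded to whole numbers, a replicate block, fits of 2 groups and leaving out libraries. The ribosomal RNA genes stayed in the table, except in 1 alternative.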

Additional observations from a re-analysis of the deposited data

Results flagged for a closer look

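Of 48 sets of library values with a group mean of at least 10 CPM, 9 held a library that lay far from the others of its group, and chance alone marks about 1 in 20 sets. EpCAM+ replicate 5 accounted for 4 of them. It held 487 CPM of Myl12a (others 68.8 to 171), 443 CPM of Myl12b (72.8 to 176) and 807 CPM of Myl6 (105 to 177), and the lowest Myo18a value, 16 CPM (33.8 to 46.8). That library had 12.21% of its counts in ribosomal RNA genes, the lowest share of all, and the part of this in the light chain values was not tested. Brush replicate 4, the shallowest brush library with 63.49% of counts in ribosomal RNA genes, held 122 CPM of Myh14 (others 70.2 to 77.4) and 228 CPM of Myl6 (76 to 108). CD45+ replicate 1, the shallowest library of all, held 445 CPM of Myl6 (others 84.8 to 125). CD45+ replicate 2 was low for Myl12a at 94.5 CPM, where the other values lay at 105 to 106. Brush replicate 6 held 55.7 CPM of Myo5b (others 23.4 to 37.1).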

How the results depend on the processing

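No called log2 fold change of a myosin gene changed direction in 28 alternative settings, 18 of which left out 1 library. Leaving out 1 library moved the numbers of genes higher and lower to 6 to 8 and 7 to 8 (brush against EpCAM+), 10 to 11 and 8 to 9 (brush against CD45+) and 8 to 9 and 5 to 6 (EpCAM+ against CD45+). The other settings gave 6 to 9 and 6 to 10, 9 to 12 and 8 to 11, and 7 to 9 and 5 to 8. The 8 genes lower in EpCAM+ than in CD45+ cells came without the filter on low counts, where more genes were tested. The share of Myo5c changed sign when taken from counts per kb, at -6.08 points between brush and EpCAM+ cells (exact permutation adjusted p = 0.0401), and the cause was not tested. With counts per kb the Myh14 share also passed there, at -9.59 points (adjusted p = 0.0184). The replicate block gave 7 higher and 8 lower, 11 and 8, and 8 and 5, and the Myo7a call between brush and CD45+ cells was lost under it (log2 fold change -1.62, edgeR adjusted p = 0.0905), while Myo1g passed between brush and EpCAM+ cells (edgeR adjusted p = 0.0479). Correlations of same-numbered libraries ran from -0.098 to 0.273 (brush with EpCAM+), -0.225 to 0.119 (brush with CD45+) and -0.209 to 0.298 (EpCAM+ with CD45+), and 2 of 7, 0 of 4 and 1 of 4 libraries correlated best with their own number, so the numbers were not taken as pairs. CD45+ replicate 1, at 371652 counts, limits what can be detected in that group.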
